A study of Mus musculus with 3 samples.

Results

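The 10 genes Dusp4, Dusp6, Spry2, Spry4, Spred1, Etv4, Etv5, Phlda1, Ccnd1 and Fosl1 form a set of transcriptional outputs and feedback inhibitors of the RAS, RAF, MEK and ERK kinase cascade (the MAPK pathway). They were chosen by name, with earlier results of these data known, and all 10 had a row among the 14293 genes of the expression table. Polyadenylated RNA was sequenced from subclones F10, F1 and F0 of the mouse melanoma cell line B16 (strain C57BL/6J), grown in vitro to subconfluence in high-glucose DMEM with 8% fetal bovine serum and used within 10 passages of thawing, with 1 library per subline. B16 F10 and F1 were derived from the parental F0 cells by selection for lung colonisation in mice, with more rounds for F10. The labels name no treatment and no engineered allele in any of the 3 sublines. With 1 library each there is no replicate error, no test and no p-value, and a difference between libraries cannot be told apart from one between cultures.

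Growth factor receptors activate RAS, which passes the signal through RAF and MEK to the kinase ERK. Active ERK drives transcription of cell cycle and transcription factor genes and also of its own inhibitors, among them phosphatases that remove the activating phosphates from ERK and Sprouty proteins that act higher in the cascade. RNA levels of such genes are therefore used as a readout of pathway activity. In human melanoma the pathway is commonly activated by mutations of BRAF or NRAS.

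Values are in RPKM, read counts divided by transcript length in kilobases and by library size, which allows levels of different genes to be set side by side. Intervals are 95% counting intervals from estimated fragments per gene and cover counting error only. A transcript of 1 kb at 1 RPKM held an estimated 5.39 fragments in F10, 6.33 in F1 and 5.46 in F0. Differences are differences of log2(RPKM + 1), which understate differences of low genes, and were taken for 10701 genes with at least 1 RPKM in at least 1 library. Counts of genes at least 1.5-fold or 2-fold apart are on that scale throughout, so a low gene can have a wider RPKM ratio and not be counted. The filter kept 7 of the 10 genes. Etv4, Spry4 and Fosl1 lay below 1 RPKM in every library and are given as levels only. The melanocyte markers Tyrp1, Dct, Pmel, Mlana, Tyr, Sox10 and Mitf, all 7 detected, summed to 8161 RPKM in F10, 8780 in F1 and 9896 in F0. Leukocyte markers (values for 3 of 9) summed to 2.99, 3.45 and 3.33 RPKM in F10, F1 and F0, with Ptprc at 0 in F10 and F0. Endothelial markers (5 of 5) summed to 1.14, 0.348 and 0.374 RPKM and keratinocyte markers (2 of 6) to 0.555, 0.0363 and 0.392 RPKM in the same order. Fibroblast markers (8 of 9) summed to 13.3 RPKM in F10, 4.86 in F1 and 5.41 in F0, with Dcn at 2.62, 0.445 and 0.396 RPKM and Pdgfrb at 3.34, 0.148 and 0.758 RPKM, and their part in the values below was not tested.

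Among the MAPK genes, the transcription factor Etv5, the ERK phosphatase Dusp6 and the cyclin Ccnd1 read lowest in F1 and Phlda1 read highest there. The median absolute difference (log2) of the 7 compared genes was 0.42 in F10 against F0 and also 0.42 in F1 against F0. It was 0.73 in F10 against F1. Over all compared genes it was 0.23, 0.21 and 0.25 in the same order, so F10 against F1 was the widest pair there too. F1 was the lowest library for 5 of the 7 compared genes (Dusp6, Spry2, Spred1, Etv5 and Ccnd1), while it was lowest for 33.4% of all compared genes. Only Dusp6, Etv5 and Ccnd1 lay below both F10 and F0 beyond counting error. Spry2 did so against F10 only, and Spred1 against neither. Etv5 was the only one of the 7 at least 2-fold apart in any pair of libraries. In RNA from whole cultures, fewer cells that express a gene and less of its RNA per cell cannot be told apart. The other 6 differed by less, and their widest RPKM ratios between libraries ran from 1.11 for Spred1 to 1.93 for Phlda1.

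**Figure D1:**
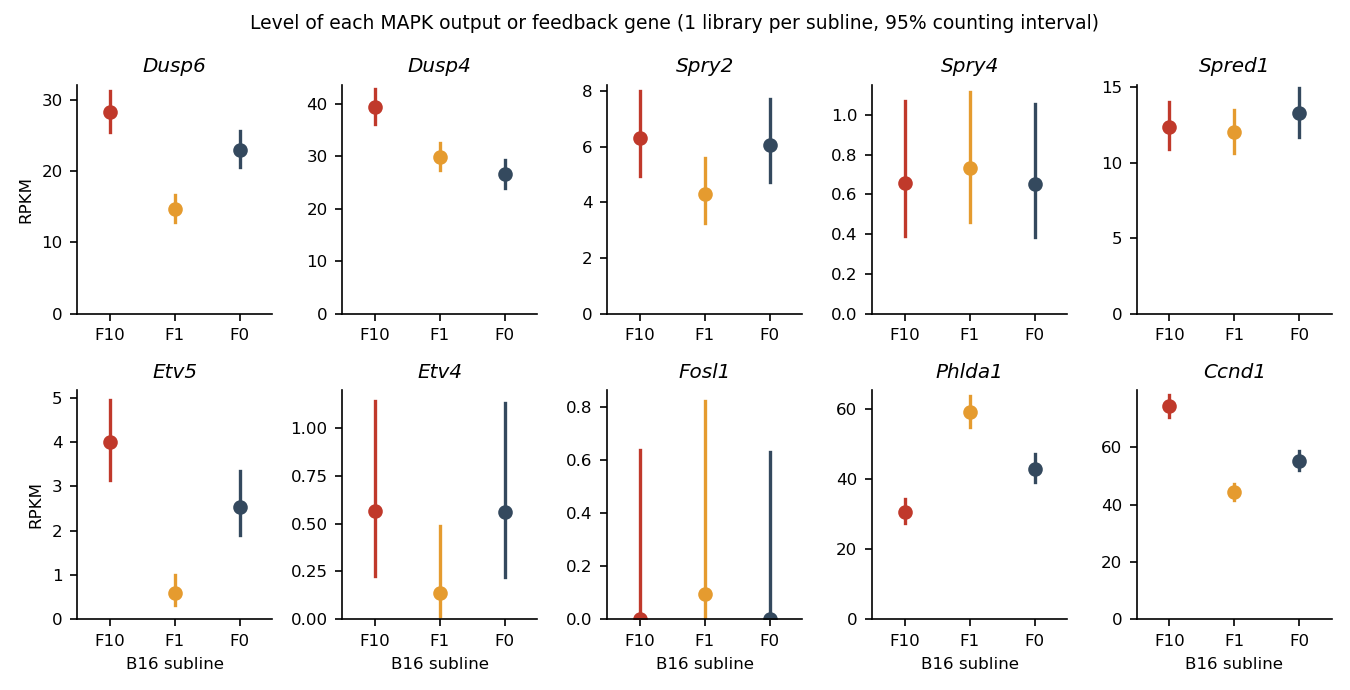
RPKM of each of the 10 genes in the F10, F1 and F0 libraries (points, 1 library each), with lines for 95% exact Poisson counting intervals from estimated fragments. Dusp6, Spry2, Spred1, Etv5, Etv4 and Ccnd1 sit lowest in F1, where Etv5 is at 0.587 RPKM, while Phlda1 sits highest there at 59.2 RPKM.

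The set spanned a wide range of levels. Averaged over the libraries, Ccnd1 stood at 58.0 RPKM, Phlda1 at 44.3, Dusp4 at 31.9, Dusp6 at 22.0, Spred1 at 12.6, Spry2 at 5.57, Etv5 at 2.37, Spry4 at 0.680 and Etv4 at 0.420 RPKM. Ccnd1 exceeded 92.7% of compared genes in F10, 86.3% in F1 and 89.0% in F0. The order of the abundant genes changed with the library. Phlda1 was below Ccnd1 and Dusp4 in F10, above all others in F1 and below Ccnd1 in F0. In F10 the counting intervals of Phlda1 (27.4 to 34.3 RPKM) and Dusp6 (25.5 to 31.2) overlapped. Dusp6 (12.9 to 16.7) and Spred1 (10.6 to 13.5) overlapped in F1, and Dusp4 (24.0 to 29.3) and Dusp6 (20.5 to 25.6) in F0.

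Dusp6 and Dusp4 encode dual-specificity phosphatases. Dusp6 (chromosome 10, 99263231 to 99267489, GRCm38, which is mm10) encodes a cytoplasmic phosphatase selective for ERK. It read 28.3 RPKM in F10, 14.7 in F1 and 22.9 in F0, on 387, 236 and 318 estimated fragments. F1 was thus the low library, and its counting interval lay below those of both others. The F1 to F0 ratio was 0.642 (0.539 to 0.760), the F10 to F1 ratio 1.92 (1.63 to 2.27) and the F10 to F0 ratio 1.23 (1.06 to 1.43). Dusp4 (chromosome 8, 34807297 to 34819894) encodes a nuclear phosphatase that acts on ERK and on other MAP kinases. It read 39.4 RPKM in F10, 29.8 in F1 and 26.5 in F0. Here F10 was the high library, with ratios of 1.32 (1.17 to 1.49) to F1 and 1.49 (1.30 to 1.69) to F0. F1 and F0 did not differ beyond counting error, at a ratio of 1.12 (0.983 to 1.28).

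Spry2, Spry4 and Spred1 encode inhibitors that act between the receptor and RAF. Spry2 (chromosome 14, 105891947 to 105896819), a Sprouty protein, read 6.32 RPKM in F10, 4.30 in F1 and 6.08 in F0, on 70, 56 and 68 estimated fragments. F1 was lowest, but only the F10 to F1 ratio of 1.47 had an interval that left out 1 (1.02 to 2.12), and the F1 to F0 ratio of 0.708 did not (0.490 to 1.03). Spred1 (chromosome 2, 117121374 to 117182279), which brings the RAS inhibitor neurofibromin to the membrane, read 12.4 RPKM in F10, 12.0 in F1 and 13.3 in F0. Its 3 ratios all had intervals that included 1, and the widest apart, F1 to F0, was 0.905 (0.763 to 1.07). Spry4 read 0.657 RPKM in F10, 0.734 in F1 and 0.650 in F0, on 17, 22 and 17 estimated fragments, with no difference detectable at this depth.

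Among the transcription factors, Etv5 and Etv4 belong to the PEA3 group of ETS factors and Fosl1 encodes Fra-1, a subunit of AP-1. Etv5 (chromosome 16, 22381309 to 22439719) read 3.99 RPKM in F10, 0.587 in F1 and 2.54 in F0, on 80, 14 and 52 estimated fragments. The F1 interval (0.324 to 0.995 RPKM) lay well below those of F10 (3.15 to 4.94) and F0 (1.91 to 3.35). Etv5 was lower in F1 than in F0, at a ratio of 0.231 (0.119 to 0.425) and a difference of -1.16 (log2). It was 6.80-fold higher in F10 than in F1 (3.77 to 12.8), a difference of 1.65 that 0.729% of compared genes exceeded in size. Between F10 and F0 the ratio was 1.57 (1.08 to 2.25). Etv4 (chromosome 11, 101769742 to 101785371) read 0.565 RPKM in F10, 0.137 in F1 and 0.559 in F0. With 7, 2 and 7 estimated fragments its counting intervals overlapped, and F1 was below the level that 3 fragments give (0.203 RPKM). Fosl1 (chromosome 19, 5447547 to 5455946) was taken as 0 in F10 and F0, where the listed values were under 0.001 RPKM. In F1 it read 0.0940 RPKM on 1 estimated fragment. For Fosl1, 3 fragments would give 0.519 RPKM in F10, 0.443 in F1 and 0.513 in F0, and all 3 libraries lay below that level.

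Phlda1 and Ccnd1 had the highest mean levels of the set. Phlda1 (chromosome 10, 111506286 to 111508645), which encodes a pleckstrin homology-like domain protein, read 30.7 RPKM in F10, 59.2 in F1 and 43.0 in F0. F1 was highest and F10 lowest, with no overlap between the 3 counting intervals, and no other of the 7 compared genes was in that order. The F1 to F0 ratio was 1.38 (1.22 to 1.55), the F10 to F1 ratio 0.518 (0.453 to 0.592) and the F10 to F0 ratio 0.714 (0.616 to 0.826). Ccnd1 (chromosome 7, 144929931 to 144939925) encodes cyclin D1, which activates Cdk4 and Cdk6 to start the cell cycle. It read 74.3 RPKM in F10, 44.4 in F1 and 55.4 in F0, on 1483, 1039 and 1118 estimated fragments. The libraries were again separate, with F10 high and F1 low. Ratios were 0.802 (0.736 to 0.873) for F1 to F0, 1.67 (1.55 to 1.81) for F10 to F1 and 1.34 (1.24 to 1.45) for F10 to F0. Genes on the opposite strand overlap both, Gm28592 at Phlda1 and Lto1 at the 3′ end of Ccnd1. The library kit keeps strand, but whether counting used it is not given in the sources used here. Lto1, listed under its older name Oraov1, read 4.43 RPKM in F10, 7.12 in F1 and 6.00 in F0.

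Upstream sequence from RefSeq (GRCm38.p6) was taken for 4 of the 10 genes. The 250 bases before the annotated start are shown for Dusp6 and Spry2, and for Etv5 the 101 bases of that stretch that also lie before the GENCODE start. These 3 genes all read lowest in F1, as did Spred1, whose stretch is not shown. Capitals mark a match to a form of the octamer bound by Capicua, a repressor that ERK signalling relieves and that is known to act on Etv4 and Etv5. Dusp6 lies at chr10:99262981-99263230 (plus strand), Spry2 at chr14:105896820-105897069 (minus strand) and the stretch before the first of 2 annotated Etv5 starts at chr16:22439720-22439820 (minus strand).
Dusp6: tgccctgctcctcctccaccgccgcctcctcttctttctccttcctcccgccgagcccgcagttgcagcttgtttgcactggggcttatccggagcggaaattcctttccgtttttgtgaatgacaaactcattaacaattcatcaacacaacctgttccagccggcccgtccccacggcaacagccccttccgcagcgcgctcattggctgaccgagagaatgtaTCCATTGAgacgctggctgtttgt
Spry2: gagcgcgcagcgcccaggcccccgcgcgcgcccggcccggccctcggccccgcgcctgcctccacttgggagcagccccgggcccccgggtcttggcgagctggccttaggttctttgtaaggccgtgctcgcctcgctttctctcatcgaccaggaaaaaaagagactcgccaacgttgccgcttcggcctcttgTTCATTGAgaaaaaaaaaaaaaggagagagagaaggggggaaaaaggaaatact
Etv5: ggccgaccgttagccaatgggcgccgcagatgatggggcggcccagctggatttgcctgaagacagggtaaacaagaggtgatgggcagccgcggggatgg

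Windows from 250 bases before to 50 after the start were searched on both strands for the Capicua octamer (TGAATGAA or TCAATGAA, and TGAATGGA or TCAATGGA, a form added after the sequences were seen), the AP-1 site TGAGTCA, the cyclic AMP response element TGACGTCA, an ETS site (CCGGAAGT or CCGGAAAT) and the GC box GGGCGGGG. In the 5 windows of Dusp6, Spry2, Spred1 and Etv5, the octamer was the only one of these motifs found. Spry2 held it once, read as TTCATTGA on the gene's strand, from base -54 to base -47 before the start. Dusp6 held the added form, read as TCCATTGA, from base -24 to base -17, and again within the 50 bases after the start. The windows of Spred1 and Etv5 held none of these motifs. Of all 32851 windows, 2.03% held the octamer ending in GAA, 1.88% the added form ending in GGA, 5.20% the AP-1 site, 1.79% the cyclic AMP response element, 4.55% an ETS site and 17.6% the GC box. The upstream stretches were GC-rich, at 56.4% for Dusp6, 62.4% for Spry2, 70.8% for Spred1 and 71.2% for the first Etv5 start, against a median of 52.4% over all windows.

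In the comparison of F10 with F0, Dusp4, Dusp6, Etv5 and Ccnd1 were higher in F10 and Phlda1 lower by ratios whose counting intervals left out 1. These are 5 of the 7 compared genes, where 34.0% of compared genes of known length had such an interval. By sign alone, 5 of the 7 lay above their F0 value and 2 below (Spred1 and Phlda1), where 49.0% of compared genes lay above, and the median difference was 0.29 (log2) against -0.01 over all compared genes. None of the 7 was at least 2-fold apart, where 1.54% of compared genes were at least 2-fold higher in F10 and 1.61% at least 2-fold lower. None reached 1.5-fold on the log2(RPKM + 1) scale either, where 5.86% of compared genes were higher by that much and 6.46% lower. Etv5, with an RPKM ratio of 1.57, stood at 0.63 with a pseudocount of 0.1, past 1.5-fold. With the pseudocount of 1 the largest difference was 0.55 for Dusp4, followed by 0.50 for Etv5 and -0.47 for Phlda1. With Etv4, Spry4 and Fosl1 included, the median was 0.03.

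In F1 against F0, Dusp6, Etv5 and Ccnd1 were lower and Phlda1 higher by ratios whose counting intervals left out 1, which makes 4 of 7 genes where 32.9% of compared genes of known length had such an interval. By sign alone, 5 of the 7 lay below F0 and 2 above (Dusp4 and Phlda1), where 50.8% of compared genes lay below, with a median difference of -0.31 against -0.01 over all compared genes. Etv5 was at least 2-fold lower, 1 of 7 genes where 1.02% of compared genes were, and none was at least 2-fold higher (0.972% of compared genes). At 1.5-fold, Dusp6 (-0.61) joined Etv5, making 2 of 7 lower against 5.68% of compared genes. No gene of the set was 1.5-fold higher, against 4.52%.

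The widest spread was between F10 and F1, as it was over all compared genes. Of the 7 genes, 6 lay above their F1 value and Phlda1 below, with a median difference of 0.47 against -0.01 over all compared genes, of which 48.8% lay above. Counting intervals left out 1 for 6 of 7 genes, all but Spred1, as they did for 38.3% of compared genes of known length. Etv5 was the 1 gene of the set at least 2-fold higher in F10, where 2.07% of compared genes were, and none was at least 2-fold lower (1.92%). At 1.5-fold, 3 of 7 were higher (Etv5, Dusp6 at 0.90 and Ccnd1 at 0.73) against 8.27% of compared genes, and Phlda1 (-0.93) was lower against 7.2%. The comparisons of F10 and of F1 with F0 share the F0 library, and the last 2 comparisons share the F1 library, so their values are not independent. Differences between F10 and F1 moved with GC content, from a median of -0.17 in the lowest of 8 bins by GC to 0.27 in the highest. Phlda1 lies in the highest bin and ran against that trend. Dusp4 (0.39) lies in bin 7, whose median was 0.12, and ran with it. Etv5 and Ccnd1 lie in bin 5, whose median was -0.01, Dusp6 and Spry2 in bin 3 (-0.10) and Spred1 in bin 1. With the median of 20 finer GC bins subtracted, Phlda1 stood at -1.20 and passed 2-fold.

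**Figure D2:**
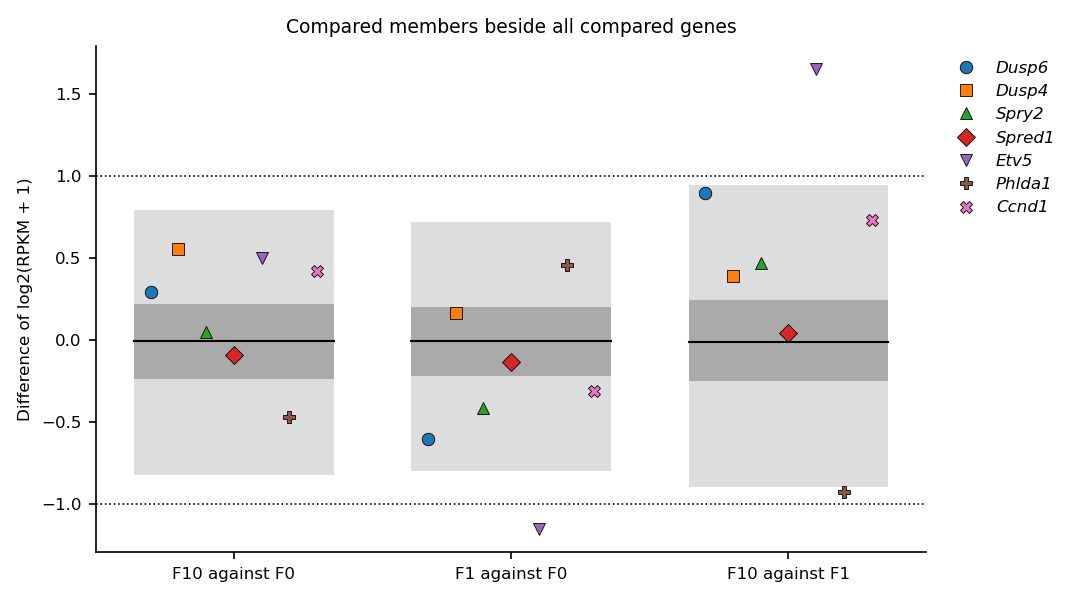
Differences of log2(RPKM + 1) of the 7 compared genes (symbols) for the 3 pairs of libraries, over the central 95% (light grey), the central 50% (dark grey) and the median (line) of all 10701 compared genes. Dotted lines mark 2-fold, which Etv5 passes at 1.65 in the comparison of F10 with F1 and at -1.16 in that of F1 with F0.

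The phosphatase family split by member. Of the other dual-specificity phosphatases, 8 of 10 were compared. In F1 against F0, 2 of these 8 were at least 2-fold higher and 1 at least 2-fold lower, against 0.972% and 1.02% of all compared genes, with a median of 0.52. In F10 against F1, 3 of 8 were at least 2-fold lower, against 1.92% of compared genes, and none higher, with a median of -0.81. Dusp8, Dusp10 and Dusp16 encode phosphatases that prefer the stress kinases JNK and p38 to ERK. Dusp16 read 8.44 RPKM in F10, 27.5 in F1 and 12.0 in F0, with an F1 to F0 ratio of 2.28 (1.97 to 2.64). Dusp8 read 1.84, 12.4 and 3.95 RPKM in F10, F1 and F0, with an F1 to F0 ratio of 3.14 (2.36 to 4.26). All 3 were highest in F1, the library in which Dusp6 was lowest, and Dusp10 read 0.903, 2.96 and 1.1 RPKM on 8, 32 and 10 estimated fragments. Dusp14 followed neither order, with 1.96 RPKM in F10, 1.44 in F1 and 6.07 in F0. In F10 against F0, Dusp14 was the 1 of 8 at least 2-fold lower, against 1.61% of compared genes. Dusp1, Dusp2, Dusp3 and Dusp7 are named after their values were seen. Dusp3 and Dusp1 also read highest in F1, so a high F1 value was not confined to Dusp8, Dusp10 and Dusp16. The F1 to F0 ratio was 1.34 (1.22 to 1.48) for Dusp3 and 1.75 (1.07 to 2.96) for Dusp1. Dusp2 and Dusp7 did not differ beyond counting error in any pair. Their F1 to F0 ratios were 1.11 (0.633 to 1.98) and 0.835 (0.574 to 1.21).

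Relatives of the other genes were mixed in the same way. Of the other Sprouty, Spred and feedback inhibitor genes, 4 were compared and none was 2-fold apart in any pair. Spry1 read 4.39 RPKM in F10, 5.67 in F1 and 3.74 in F0, Spred2 read 7.22, 7.09 and 5.13, and Errfi1, an inhibitor of the epidermal growth factor receptor, read 3.25, 4.68 and 4.14. Spry1 was highest in F1, where Spry2 was lowest. None of the 11 other ETS and Capicua complex genes was 2-fold apart. Ets1 read 99.2 RPKM in F10, 73.4 in F1 and 76.6 in F0, Gabpa 12.3, 14.2 and 10.4, and the repressor Cic itself 12.5, 8.60 and 8.07. Etv1, the remaining PEA3 factor, read 2.74 RPKM in F10, 1.44 in F1 and 2.85 in F0 on 25, 15 and 26 estimated fragments. It is named after its values were seen, and with it all 3 PEA3 genes read lowest in F1. The F1 value of Etv4 had an interval that overlapped those of F10 and F0. For Etv1, the F10 to F1 ratio of 1.90 had an interval that included 1 (0.991 to 3.99). Its F1 to F0 ratio of 0.505 had one that left out 1 (0.245 to 0.976).

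**Figure D3:**
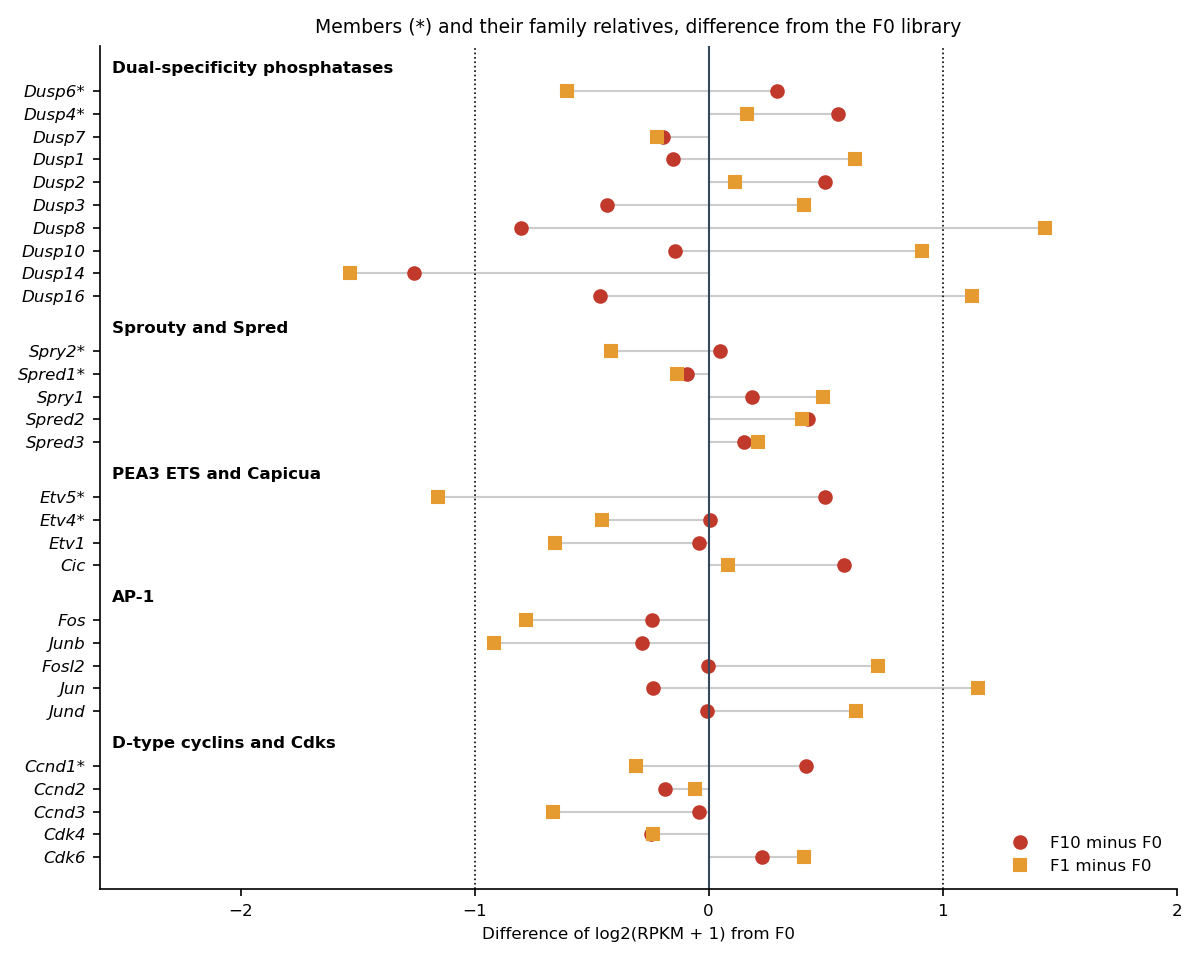
Difference of log2(RPKM + 1) from the F0 library for F10 (circles) and F1 (squares), for genes of the set (asterisks) and family relatives, with dotted lines at 2-fold. Dusp8 and Dusp16 sit right of the 2-fold line in F1, where Dusp6 sits at -0.61, and Etv5, Etv4 and Etv1 sit left of 0 in F1.

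The AP-1 genes other than Fosl1 had 8 of 10 compared, with a median of 0.67 in F1 against F0. Jun was the 1 gene at least 2-fold higher, where 0.972% of compared genes were. It read 4.61 RPKM in F10, 13.7 in F1 and 5.62 in F0, an F1 to F0 ratio of 2.44 (1.92 to 3.09). In F10 against F1 it was the 1 at least 2-fold lower, where 1.92% of compared genes were. Fos and Junb, named after their values were seen, ran the other way on few fragments. Fos read 0.90 RPKM in F10, 0.306 in F1 and 1.25 in F0, and Junb read 0.819, 0.174 and 1.22, resting on 4 and 2 estimated fragments in F1. Their F1 to F0 ratios were 0.246 (0.0591 to 0.785) for Fos and 0.143 (0.0156 to 0.646) for Junb, which the log2(RPKM + 1) scale does not count as 2-fold. The immediate early gene Egr1, a rapid target of ERK through serum response factor, read 1.41 RPKM in F10, 0.157 in F1 and 0.182 in F0, on 28, 4 and 4 fragments. On the log2(RPKM + 1) scale it was the 1 of 7 other MAPK output genes at least 2-fold apart, higher in F10 than in F1 and F0. Of compared genes, 2.07% were at least 2-fold higher in F10 than in F1 and 1.54% than in F0. Phlda3 and Plaur, named after their values were seen, fell just short in F10 against F1, with RPKM ratios of 2.02 (1.65 to 2.46) and 0.465 (0.320 to 0.683). The medians of those 7 were -0.11 in F10 against F0, 0.12 in F1 against F0 and -0.17 in F10 against F1, opposite in sign to those of the set in each pair. Of 16 compared immediate early genes, 2 were at least 2-fold higher in F1 than in F0 on that scale (0.972% of compared genes). These were Jun and Atf3. None was at least 2-fold lower (1.02%), Fos and Junb falling short of it as above. In F10 against F0, Egr1 was at least 2-fold higher and Atf3 lower, against 1.54% and 1.61% of compared genes. In F10 against F1, Egr1 was higher and Jun and Atf3 lower, against 2.07% and 1.92%.

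Cyclin D1 was 1 of 3 D-type cyclins at high level. Ccnd2 read 122 RPKM in F10, 133 in F1 and 139 in F0, above Ccnd1 in every library. Ccnd3, named after its values were seen, read 85.6, 55.1 and 88.1 RPKM in F10, F1 and F0. Ccnd1 and Ccnd3 were thus lowest in F1 and Ccnd2 was not. Their partner Cdk4 read 185 RPKM in F10, 186 in F1 and 220 in F0. The Cdk inhibitor Cdkn1a read 78.4, 83.3 and 155 RPKM in F10, F1 and F0. None of the 10 compared D-cyclin partner genes was 2-fold apart in any pair. Beside these values, 13 of 14 proliferation markers lay below F0 in F1, none at least 2-fold, with a median of -0.35, where 50.8% of all compared genes lay below F0. In F10, where Ccnd1 was above F0, 9 of the 14 also lay below F0, with a median of -0.14 (51.0% of compared genes below). In F10 against F1, 12 of the 14 lay above, with a median of 0.28 (48.8% of compared genes above). Mcm2 read 136 RPKM in F10, 95.2 in F1 and 120 in F0, Pcna 286, 253 and 412, and Top2a 123, 99.5 and 103. Whether the cyclin values go with the share of cycling cells was not tested.

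The cascade above ERK showed no gene 2-fold apart on the log2(RPKM + 1) scale in any pair, among 12 adaptors and RAS exchange factors, 7 RAS proteins, 8 RAS GTPase-activating proteins and 11 RAF, MEK and ERK kinases and scaffolds. In RPKM, and named after their values were seen, Rras (0.486, 0.281 to 0.835) and Ksr1 (3.17, 0.750 to 18.3) had F10 to F1 ratios past 2-fold. So did Mras, at 4.30 RPKM in F10 and 2.15 in F1, and Ksr1 had an F10 to F0 ratio of 2.27 (0.542 to 9.18). The lists' medians in F1 against F0 ran from 0.00 for RAS proteins to 0.11 for the kinases. In F10 against F1 they ran from -0.11 for RAS proteins to 0.18 for the GTPase-activating proteins. Mapk3, which encodes ERK1, read 56.9 RPKM in F10, 54.8 in F1 and 62.6 in F0. Among adaptors, Shc1 read 42.5, 35.4 and 29.5 RPKM, Ptpn11 31.3, 40.8 and 37.0, and the exchange factor Rasgrp3 32.9, 21.8 and 33.4 in F10, F1 and F0. Of the genes with levels given here for F10, F1 and F0, Rasgrp3, Mapk3, Hras, Rasa3 and Pebp1 read lowest in F1. Ptpn11, Nras and Rasa1 read highest there. For Rasgrp3, Hras, Pebp1 and Ptpn11, the F1 to F0 and F10 to F1 ratios both had counting intervals that left out 1. For Rasa3 only the F10 to F1 ratio did, at 1.24 (1.13 to 1.37). Mapk3, Nras and Rasa1 did not differ beyond counting error in any pair. Nras read 22.3 RPKM in F10, 24.2 in F1 and 21.7 in F0, and Hras 22.3, 15.9 and 25.6. Nf1, which encodes neurofibromin, read 7.89, 7.51 and 6.04 RPKM, Rasa1 10.4, 11.6 and 10.8, Rasa3 39.4, 31.7 and 34.3, and Pebp1, a RAF inhibitor, 214, 179 and 237. RNA levels of these genes do not show whether the kinases were active.

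**Figure D4:**
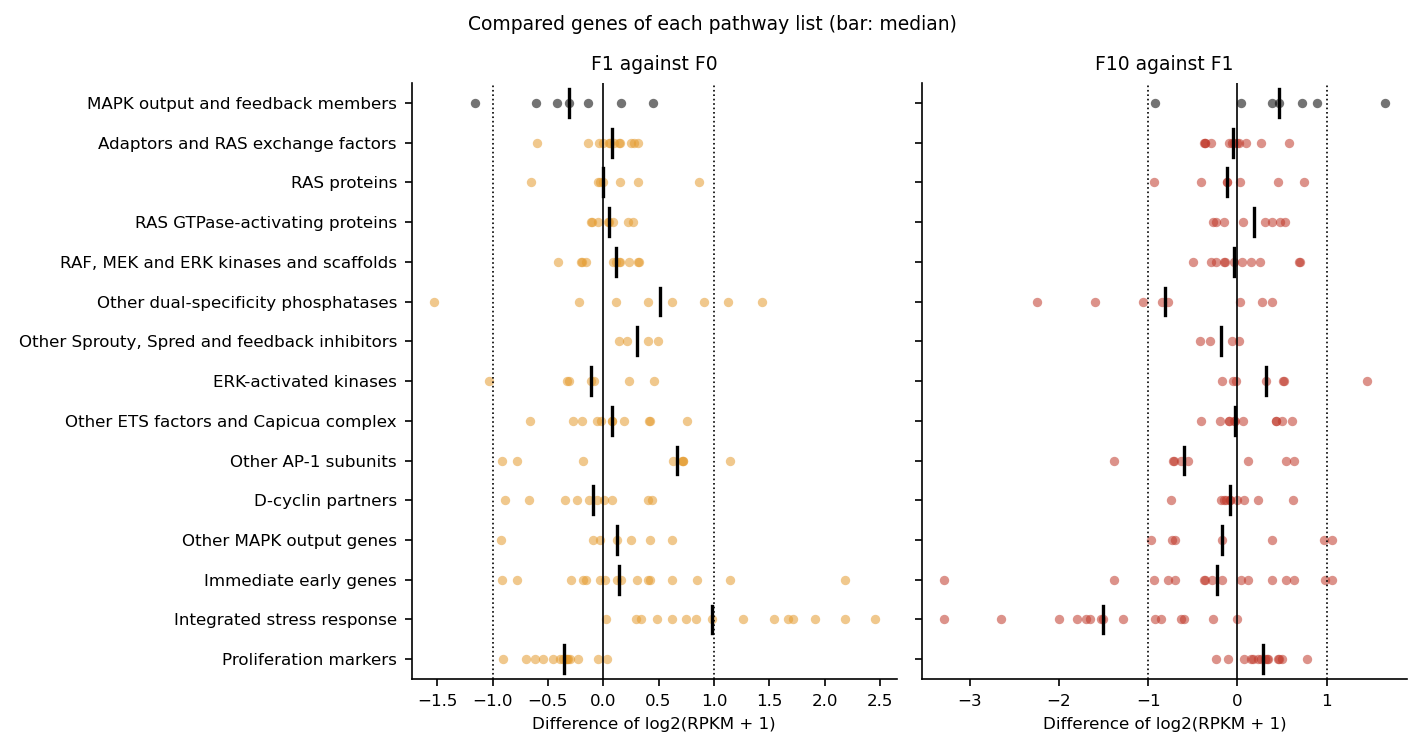
Differences of log2(RPKM + 1) for the compared genes of each pathway list (points) and the list's median (bar), with F1 against F0 on the left and F10 against F1 on the right, and dotted lines at 2-fold. The medians of the set (top row) are -0.31 and 0.47, those of the other dual-specificity phosphatases 0.52 and -0.81, and those of the integrated stress response 0.98 and -1.50.

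Below ERK, 7 of 8 ERK-activated kinase genes were compared. Of these, Mknk2 was the 1 at least 2-fold lower in F1 than in F0, where 1.02% of compared genes were. It encodes a kinase of the translation factor eIF4E. Mknk2 was also the 1 at least 2-fold higher in F10 than in F1, where 2.07% were. It read 54.9 RPKM in F10, 19.3 in F1 and 40.6 in F0. Of 7403 named genes averaging at least 5 RPKM, Mknk2 was also nearest to Etv5 in its pair of differences from F0, at a Euclidean distance of 0.14 (log2) over 3 libraries. That nearness holds on the log2(RPKM + 1) scale, which shrinks the differences of the low Etv5, and the RPKM ratio of F1 to F0 was 0.231 for Etv5 and 0.476 for Mknk2. Next was Id2, an inhibitor of basic helix-loop-helix factors, with 53.5 RPKM in F10, 17.9 in F1 and 36.9 in F0 and a distance of 0.15.

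Genes of the integrated stress response, a programme that unfolded proteins and amino acid shortage induce through Atf4, read highest in F1. This list was chosen with earlier results of these data known, so the shares of all compared genes are given for scale only. The summed level of all 15 genes was 1696 RPKM in F10, 4328 in F1 and 2224 in F0. All 15 lay above their F0 value in F1, where 49.1% of all compared genes did. Of these, 7 were at least 2-fold higher (Ddit3, Atf3, Trib3, Ppp1r15a, Slc7a11, Vldlr and Nupr1), where 0.972% of compared genes were. Atf3, itself an AP-1 partner, read 5.34, 60.9 and 12.6 RPKM in F10, F1 and F0, and Ddit3, which encodes CHOP, read 100.2, 404 and 126. In F10 against F1, these 7 with Hspa5 and Herpud1 were at least 2-fold lower, where 1.92% of compared genes were. In F10 against F0, Atf3 and Herpud1 were, where 1.61% of compared genes were. The part of these stress response genes in the values of Dusp6, Etv5, Phlda1 and the stress kinase phosphatases was not tested.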

How the data were processed

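Polyadenylated RNA of 3 cultures, 1 per subline, was sequenced with a stranded kit, per the labels' protocols. Per the submitters' processing notes, Cufflinks, TopHat, Bowtie2 and bcl2fastq were used with build mm10. The sources used here give neither their versions and settings nor the annotation. The deposited table holds RPKM per gene and library, per the file headers. Its score columns equal the difference of 2 RPKM values divided by the square root of their sum, within 1e-09, so the authors' score carries no replicate spread and was not used further.

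Of 14313 rows, 20 with a date in place of a symbol were left out, and values under 0.001 RPKM were taken as 0. Fragments per gene were estimated from the steps of low RPKM values in 1324 genes that have 1 transcript, 800 bases or longer (length less 40 bases, 78.5% of values near the step within 5% of it) and from median coding transcript lengths in GENCODE M21 (GRCm38), known for 99.0% of genes, 518 through an older symbol. Precision follows from these: the median compared gene held 117 estimated fragments in F10, 139 in F1 and 120 in F0. Ratio intervals are 95% exact Clopper-Pearson intervals, level intervals exact Poisson, and the floor is 3 fragments. The differences, the 2-fold threshold and the ratio intervals were tested on simulated counts. These took the estimated depth and the lengths as given, so the estimation of fragments was not tested.

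The genes and lists were chosen with earlier results of these data known. Named are all 10 genes, and of each other list the compared genes at least 2-fold apart in a pair or, where there were none, the 3 of highest mean RPKM, with the 3 genes nearest to Etv5 in pattern. One form of the Capicua octamer was added after the sequences were seen. Exceptions are marked, and some genes that this rule names are not reported here. Alternatives were pseudocounts of 0.1 and 0.5, no filter or one at 5 RPKM, rescaling to equal sums or by median ratios, subtraction of the median of 20 GC bins or of 40 neighbouring genes, and thresholds of 1.5-fold and 4-fold. Analyses used Python 3.11.15 with pandas 2.3.3, numpy 2.4.6 and scipy 1.17.1.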

Additional observations from a re-analysis of the deposited data

How the results depend on the processing

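No paired analysis was possible because each subline had 1 library. For the 7 compared genes the direction held under all alternatives in all pairs, apart from Spred1, which turned to 0.09 (F10 against F0), 0.21 (F1 against F0) and -0.05 (F10 against F1) when the median of neighbouring genes was subtracted. The median over the set in F10 against F0 was 0.028 without the filter on low values. At a filter of 5 RPKM Etv5 was left out, and 0 genes of the set were 2-fold apart in F1 against F0 or F10 against F1, as with a 4-fold threshold. At 1.5-fold there were 2 and 4. In F10 against F1, 2 were 2-fold apart with GC bins subtracted (Etv5 and Phlda1 at -1.20) and 2 with neighbouring genes subtracted (Etv5 and Dusp6). With a pseudocount of 0.1, Etv5 stood at -1.94 in F1 against F0 and 2.57 in F10 against F1. The causes were not tested.

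Of all compared genes, 337, 213 and 426 were at least 2-fold apart in F10 against F0, F1 against F0 and F10 against F1. A pseudocount of 0.1 gave 638, 543 and 827, a filter of 5 RPKM 176, 132 and 261, a 1.5-fold threshold 1318, 1092 and 1655, and a 4-fold threshold 44, 19 and 40. Rescaling each library to the same RPKM sum, which also shrinks the pseudocount relative to the values, gave 529, 416 and 687. A pseudocount of 0.5 gave 367 in F1 against F0. Depth limits Etv4, Spry4 and Fosl1, which held at most 22 estimated fragments in a library, and fragment estimates are rougher for genes with several transcripts of unlike length.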
